A study of Mus musculus with 37 samples.

Results

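Immediate early genes are the genes that neurons switch on first after synaptic activity. The 10 described here (Fos, Fosb, Junb, Egr1, Egr2, Egr4, Arc, Npas4, Nr4a1 and Dusp1) were chosen by name, each read from its probe set with a single listed symbol, and they are 10 of the 19938 genes so measured. The study asked whether brain expression follows the copy number of a block of mouse chromosome 7 that corresponds to human 16p11.2. It measured 37 arrays of tissue from 8 mice, taken from 4 brain regions, namely brain stem, cerebellum, cortex and olfactory bulb. The 2 df/+ mice carry a heterozygous deletion of the block (1 copy), the 3 +/+ mice are wild type (2 copies), and the 3 dp/+ mice carry a heterozygous duplication (3 copies). The labels give separate mice as replicates, and all 8 were male F1 hybrids of C57BL/6N and 129Sv, so the 3 groups share that background and sex. The labels give no age and no handling or stimulus before the tissue was taken. Averaging the 6 samples that had 2 arrays left 31 region samples, since no cortex of dp/+ mouse 3 was analysed.

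Calcium entry and growth factor signals reach these genes mainly through 2 routes. The ERK kinases activate Elk1, a partner of serum response factor at CArG boxes, and the transcription factor CREB binds the element TGACGTCA or its core TGACG. Because their RNAs appear without new protein synthesis and are short-lived, Fos, Arc and Egr1 are widely used as marks of recently active neurons. Mapk3, which encodes the kinase ERK1 and lies inside the deleted and duplicated block, was not analysed here, having no probe set with a single symbol.

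The labels were checked first on genes of the block. Of 19 measured genes from a list of 22 in the block, 18 were lower in every df/+ mouse than in every +/+ mouse, and 18 were higher in every dp/+ mouse. The median over these genes was -0.65 log2 below the +/+ mean in both df/+ mice and 0.30 to 0.35 above it in the dp/+ mice. The dissections were checked on marker genes. Markers were highest in their own region for 10 of 10 olfactory bulb, 7 of 8 cortex, 11 of 11 cerebellum and 10 of 10 brain stem genes, the exception being Rasgrf2.

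The brain stem samples of +/+ mice 1 and 2 stood apart from the other 6. Tbr1, a transcription factor of cortical projection neurons, read 8.49 and 9.08 log2 in them and 5.79 to 7.13 in the others. Ttr, a secreted product of the choroid plexus, read 12.39 and 12.98 against 8.95 to 10.28. Of the 8 cortex markers, Tbr1, Neurod6 and Fezf2 separated these samples from the rest. Lamp5, Rorb and Emx1 overlapped the others, and Cux2 (8.66 and 8.76) and Rasgrf2 (10.01 and 10.22) were not raised. The region contrasts of +/+ mice, the genotype differences and the correlations are therefore also given without these samples or without the brain stem. The other brain stem samples were not uniform either. Over the 11 cerebellum markers, 1 dp/+ sample averaged 9.46 log2, against 8.32 to 8.60 in the rest. In dp/+ mouse 1, Tbr1 (7.13) and Neurod6 (7.12) exceeded the remaining samples outside the 2 +/+ ones (5.79 to 6.45 and 5.44 to 6.20). These dp/+ samples stayed in the fit without the 2 +/+ samples. The tissue was bulk, so fewer cells expressing a gene and less RNA per cell cannot be told apart.

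Promoter windows of 250 bases before the start, from RefSeq (GRCm38.p6), were matched for 8 of the 10 members, all but Arc and Egr1. The CREB core TGACG, searched on both strands, was present for 8 of these 8 in at least 1 window (Egr2 had 5, for its 5 listed starts), against 17.8% of 32851 mouse windows of the same length. The full element TGACGTCA, which also counts as TGACG on each strand, was present in 1 member, Dusp1, and in 1.55% of windows. A CArG box was present in 1 member, Egr2 (1.47% of windows). TATAAA was present in Fos alone (12.4% of windows), and the early growth response motif GCGNGGGCG in Fosb and Nr4a1 (4.7%). The AP-1 motif TGANTCA was found in none of the 8 members (6.75% of windows). The 4 members with most CArG and TGACG matches, Fos being taken over Egr4 and Npas4 by list order in a tie, are printed below 5′ to 3′. Of these only Egr2 had a CArG box in its window, while Nr4a1, Dusp1 and Fos had TGACG matches and no CArG box. Sites more than 250 bases before the start were not searched. Capitals mark the TGACG matches (CGTCA where the match is on the other strand) and, in Egr2, also the CArG box. A match describes letters only and does not show binding.
Nr4a1, chr15:101266596-101266845, plus strand: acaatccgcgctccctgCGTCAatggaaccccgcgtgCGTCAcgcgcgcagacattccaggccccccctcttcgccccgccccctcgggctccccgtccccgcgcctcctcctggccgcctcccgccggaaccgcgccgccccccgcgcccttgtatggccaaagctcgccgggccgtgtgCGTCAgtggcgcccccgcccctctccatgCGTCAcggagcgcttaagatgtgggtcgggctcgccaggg
Dusp1, chr17:26508473-26508722, minus strand: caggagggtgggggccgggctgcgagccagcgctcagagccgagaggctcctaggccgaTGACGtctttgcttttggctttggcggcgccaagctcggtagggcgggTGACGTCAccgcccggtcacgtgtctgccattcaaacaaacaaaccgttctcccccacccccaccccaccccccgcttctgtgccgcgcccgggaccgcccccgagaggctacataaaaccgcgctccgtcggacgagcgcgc
Fos, chr12:85473640-85473889, plus strand: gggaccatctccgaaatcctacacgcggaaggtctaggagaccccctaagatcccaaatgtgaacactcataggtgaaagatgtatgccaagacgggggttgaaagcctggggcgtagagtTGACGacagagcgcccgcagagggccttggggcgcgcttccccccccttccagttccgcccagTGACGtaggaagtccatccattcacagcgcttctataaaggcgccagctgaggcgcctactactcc
Egr2, chr10:67537789-67537818, plus strand, positions -80 to -51 relative to the third of 5 listed starts: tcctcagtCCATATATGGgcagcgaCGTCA
Nr4a1 had 4 TGACG matches, at positions -233, -213, -69 and -40 relative to its start. In Egr2 the CArG box began at position -72 relative to that start and the printed TGACG core at -55.

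The members differed strongly between regions of the wild-type brain. Values are log2 units as deposited, so a difference of 1 is a doubling, and the call threshold was an adjusted p of 0.05 over all genes. In +/+ mice 10 of 10 members passed the limma F test for a difference among regions, against 58% of all genes. The olfactory bulb was the highest region for 8 members and the cortex for 2 (Egr4 and Arc), while the cerebellum was lowest for 5 and the brain stem for 5. For 8 members, all but Fos and Dusp1, every one of the olfactory bulb and cortex samples of all 3 genotypes lay above every cerebellum and brain stem sample, a split seen in 1.85% of all genes.

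**Figure D1:**
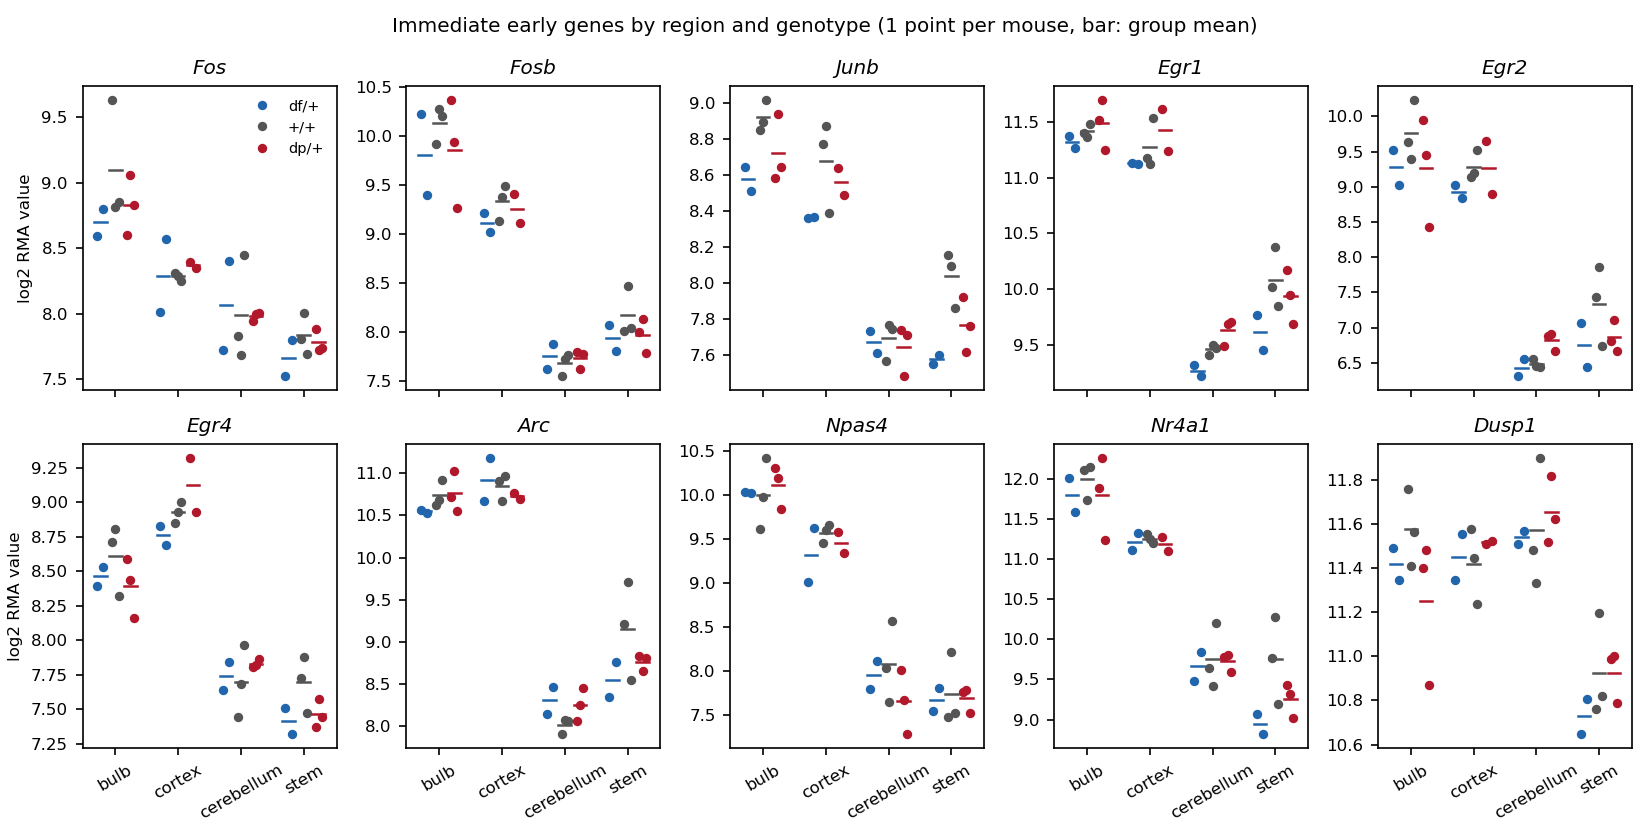
Log2 RMA value of each of the 10 immediate early genes (vertical axis, 1 panel per gene) in each region (horizontal axis), with 1 point per mouse coloured by genotype (df/+, +/+ and dp/+) and a bar at each group mean. Bulb and cortex points sit above cerebellum and brain stem points in 8 panels, and Dusp1 is low in the brain stem alone.

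Egr2, a zinc finger transcription factor of the early growth response family, had the widest range between regions. In +/+ mice 1, 2 and 3 it read 9.64, 9.40 and 10.24 in the olfactory bulb and 9.14, 9.20 and 9.52 in the cortex. It read 6.56, 6.45 and 6.45 in the cerebellum and 7.44, 7.86 and 6.73 in the brain stem. The forebrain samples and the others did not overlap, the bulb mean was 9.68-fold the cerebellum mean, and the difference was 3.27 ± 0.23 log2 (SE; limma adjusted p = 7.68e-09). Egr1, the most widely studied gene of this family, was 1.95 ± 0.12 log2 higher in bulb than cerebellum (limma adjusted p = 2.37e-09). Egr4 was one of the 2 members highest in cortex, at 8.85, 8.93 and 9.005 against 8.71, 8.81 and 8.32 in the bulb. These Egr4 samples did not overlap, but the difference of -0.32 ± 0.14 for bulb minus cortex missed the threshold (limma adjusted p = 0.0889).

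The AP-1 genes were also highest in bulb and next highest in cortex. Fosb, whose splice form ΔFosB accumulates under repeated activity, read 9.92, 10.28 and 10.21 in the +/+ bulb, 9.14, 9.38 and 9.49 in cortex, 7.55, 7.72 and 7.76 in cerebellum and 8.01, 8.47 and 8.04 in brain stem. The 4 regions did not overlap, and bulb exceeded cortex by 0.80 ± 0.10 log2 (limma adjusted p = 9.00e-06). Fos, the founding member of the family, read 9.63, 8.82 and 8.85 in the +/+ bulb and 8.31, 8.29 and 8.25 in cortex. Its bulb minus cortex difference was 0.82 ± 0.19 log2 (limma adjusted p = 0.00356), and its cortex, at 0.30 ± 0.19 above cerebellum, was not separated from that region (limma adjusted p = 0.252), although it was with array weights (0.37, adjusted p = 0.0483) or without +/+ mouse 3 (0.54, adjusted p = 0.0389). Junb, a Jun protein that pairs with Fos, was 1.23 ± 0.11 log2 higher in bulb than cerebellum (limma adjusted p = 2.21e-07) and its cerebellum minus brain stem difference was -0.35 ± 0.11 (adjusted p = 0.0253).

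Arc, whose protein regulates glutamate receptor removal at synapses, was high in both forebrain regions, and their difference did not exceed its error. It read 10.62, 10.68 and 10.92 in the +/+ bulb and 10.91, 10.67 and 10.97 in cortex, against 7.91, 8.07 and 8.07 in cerebellum. The cortex mean was 7.13-fold the cerebellum mean, whereas bulb minus cortex was -0.11 with a 95% interval of -0.52 to 0.30. Npas4, a neuron-specific transcription factor that responds to calcium entry, was 2.27 ± 0.20 log2 higher in bulb than brain stem (limma adjusted p = 2.28e-07). Its cerebellum and brain stem values overlapped, with a difference of 0.34 ± 0.20 (limma adjusted p = 0.212), which was 0.80 without +/+ mouse 2 (adjusted p = 0.00198) and 0.90 without the 2 brain stem samples that stood apart (0.00949).

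Nr4a1, an orphan nuclear receptor, fell stepwise from bulb to cortex and from cortex to the other regions, while Dusp1 did not share the forebrain pattern. Nr4a1 read 12.11, 11.74 and 12.14 in the +/+ bulb and 11.30, 11.24 and 11.19 in cortex, a difference of 0.75 ± 0.22 log2 (limma adjusted p = 0.0154). Dusp1, a phosphatase that inactivates MAP kinases, was set apart by its low brain stem, where it was 0.65 ± 0.15 log2 below cerebellum (limma adjusted p = 0.00273). Its bulb, cortex and cerebellum values overlapped, and the bulb minus cerebellum difference was 0.01 with a 95% interval of -0.31 to 0.33.

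Pair by pair in +/+ mice, with limma and all genes called in the same direction given beside each count, bulb was higher than cortex for 3 members (16.4% of all genes), than cerebellum for 9 (16.3%) and than brain stem for 10 (14.1%). Cortex was higher than cerebellum for 8 members (17.4%) and than brain stem for 9 (13.4%). Cerebellum was lower than brain stem for 5 members, namely Arc, Egr1, Egr2, Fosb and Junb, and higher for 1, Dusp1 (18.4% of all genes each way). The 5 lower estimates shrank without the brain stem samples of +/+ mice 1 and 2, whereas that of Dusp1 did not. That fit keeps 1 +/+ brain stem sample, so a lost call cannot be told apart from lower precision after leaving out those samples. Without them, with the remaining brain stem sample assumed to vary like the other regions, 0 members were lower in cerebellum and 3 were higher, namely Dusp1 (0.80), Npas4 (0.90) and Nr4a1 (0.74, limma adjusted p = 0.0165). The Arc difference then went from -1.14 to -0.41 (limma adjusted p = 0.0532), Egr1 from -0.62 to -0.28, Fosb from -0.49 to -0.26, Junb from -0.35 to -0.22 and Egr2 from -0.86 to -0.02. In that fit bulb was again higher than brain stem for 10 members and cortex for 9, the F test again called 10, and bulb was higher than cortex for 5, with Egr2 (adjusted p = 0.0144) and Npas4 (0.0326) added.

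Single mice also decided some calls. The Junb difference between cerebellum and brain stem was -0.22 without +/+ mouse 1 (adjusted p = 0.228) and -0.35 without +/+ mouse 2 (adjusted p = 0.106). It also missed the threshold after quantile normalisation within regions (adjusted p = 0.0583) and centring on medians (0.0567). For Egr2 the same contrast missed the threshold without mouse 1 (adjusted p = 0.0631) or mouse 2 (0.0737), and for Dusp1 without mouse 3 (0.0556). For Dusp1 without +/+ mouse 1, the F test over regions had adjusted p = 0.0549, bulb minus brain stem 0.0628 and cortex minus brain stem 0.217. The Nr4a1 call of bulb over cortex missed the threshold without +/+ mouse 1 (adjusted p = 0.111), and its cerebellum minus brain stem difference went from 0.00 to -0.50 without +/+ mouse 3 (limma adjusted p = 0.0417). The order of the 4 region means was identical in the 3 genotypes for 6 members, and the highest region was the same for 8.

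Copy number was then examined with 1 value per mouse, its average deviation from the +/+ mean of each region in log2 units, which puts the +/+ mean at 0. For dp/+ mouse 3, which had no cortex sample, the average covered bulb, cerebellum and brain stem only. No member passed the threshold for a slope on log2 copies in limma, against 0.11% of all genes. At an unadjusted p below 0.05 the count was 1 member, Egr1, beside 6.87% of all genes. The members' slopes ran from -0.02 to 0.17 log2 per doubling of copies, with 9 of 10 above 0 and a median of 0.03, while the median of all genes was 0.01. Without df/+ mouse 1 the slope was above 0 for 5 of 10.

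Egr1 had the largest of these slopes. Its values were -0.16 and -0.30 in df/+ mice 1 and 2, -0.06, 0.03 and 0.02 in +/+ mice 1, 2 and 3, and 0.14, 0.08 and -0.11 in dp/+ mice 1, 2 and 3. The df/+ mice were the lowest of all 8, and 2 of the 3 dp/+ mice were higher than any +/+ mouse. The slope was 0.17 ± 0.05 (95% interval 0.06 to 0.28; unadjusted p = 0.00553, limma adjusted p = 0.697). With array weights, which count noisier samples less, the slope of 0.16 passed at an adjusted p of 0.0219; under that weighting 1616 of all genes were called in place of 22. Egr1 was 0.27 ± 0.08 higher in dp/+ than in df/+ mice (limma adjusted p = 0.240, or 0.0401 with array weights).

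Deletion mice had lower values than wild type for the whole set without any member passing the test. In df/+ against +/+ mice, 0 of 10 members were called by limma, against 0.115% of all genes, and 4 had an unadjusted p below 0.05, all lower, against 5.66% of all genes lower at that level. The difference was below 0 for 10 of 10 members, from -0.37 to -0.09, with a median of -0.16 beside -0.01 for all genes. For 6 members, Junb, Egr1, Egr2, Egr4, Nr4a1 and Dusp1, both df/+ mice lay below all 3 +/+ mice, as did 13.8% of all genes. Quantile normalisation within regions, centring on medians and cyclic loess gave members' medians of -0.11, -0.11 and -0.12. Without df/+ mouse 1 the difference was below 0 for 7 of 10 members. The 5 choroid plexus genes moved the same way, with 5 of 5 below 0 in df/+ (median -0.57) and in dp/+ mice (median -0.34).

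Junb, the Jun-family member, had the smallest p of the members. Its values were -0.26 and -0.31 in the 2 df/+ mice, 0.00, 0.07 and -0.08 in the +/+ mice, and -0.11, -0.20 and -0.18 in the dp/+ mice. The 2 altered genotypes both lay below all +/+ mice, so the values did not follow copy number in 1 direction. The df/+ difference was -0.29 ± 0.06 (95% interval -0.42 to -0.15; unadjusted p = 0.000678, limma adjusted p = 0.243), to 82.1% of the +/+ level. The dp/+ difference was -0.16 ± 0.06 (unadjusted p = 0.0127, limma adjusted p = 0.122).

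Egr2 and Nr4a1, with Junb and Egr1, were the members with an unadjusted p below 0.05 in df/+ mice. Egr2 read -0.24 and -0.50 in df/+ mice and -0.02, 0.01 and 0.02 in +/+ mice, but 0.10, -0.13 and -0.61 in dp/+ mice, so the duplication group spanned the range of all others. Its df/+ difference was -0.37 ± 0.15 (unadjusted p = 0.0341, limma adjusted p = 0.708). Nr4a1 read -0.27 and -0.29 in df/+ mice, 0.02, -0.02 and -0.01 in +/+ mice and -0.09, -0.07 and -0.55 in dp/+ mice. Its difference was -0.28 ± 0.12 in df/+ (limma adjusted p = 0.705) and -0.24 ± 0.10 in dp/+ mice (adjusted p = 0.194). Without the brain stem the Nr4a1 difference in df/+ was -0.11 ± 0.14, and the df/+ and +/+ mice then overlapped.

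**Figure D2:**
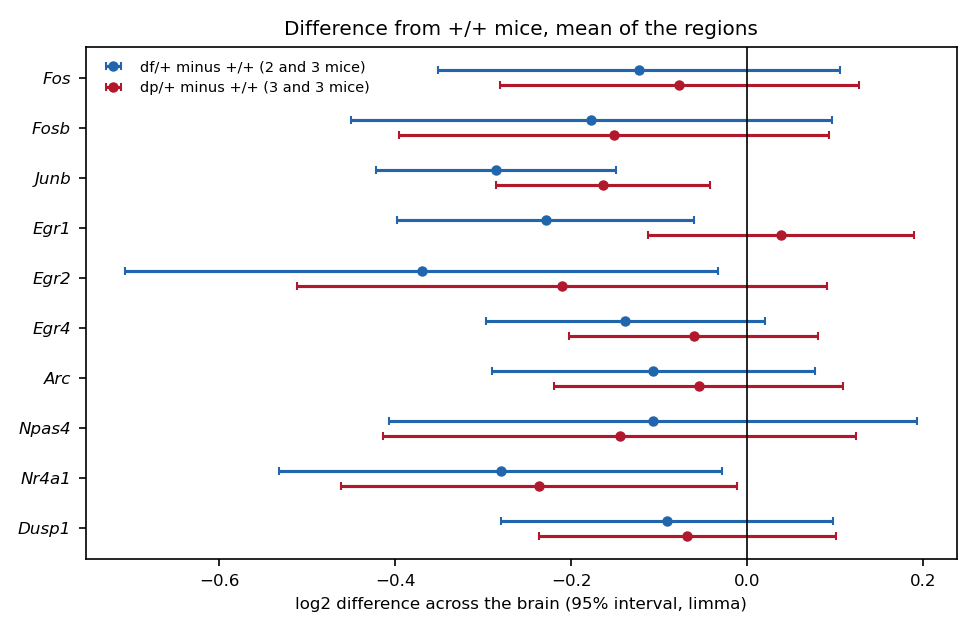
Log2 difference from the 3 +/+ mice (horizontal axis, point with 95% interval from limma) for each member (vertical axis) in the 2 df/+ and the 3 dp/+ mice, as a mean over regions. All 10 df/+ points and 9 of 10 dp/+ points lie below 0, and most intervals include 0.

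The duplication was compared with the same 3 +/+ mice, so the df/+ and dp/+ differences share their controls. In dp/+ against +/+ mice, 0 of 10 members were called by limma, against 1.86% of all genes. At an unadjusted p below 0.05 there were 2, Junb and Nr4a1, both lower, against 9.71% of all genes lower at that level. The difference was below 0 for 9 of 10, with a median of -0.11, and only for Junb and Nr4a1 did all 3 dp/+ mice lie below all +/+ mice (10.9% of all genes). Directly compared, dp/+ minus df/+ was above 0 for 9 of 10 members with a median of 0.05, and 0 were called by limma (0.171% of all genes). At an unadjusted p below 0.05 there was 1, Egr1, against 11.3% of all genes. For Npas4 the dp/+ minus df/+ interval ran from -0.34 to 0.26, and for Arc from -0.13 to 0.24.

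Within single regions 0 of the 80 member comparisons with +/+ mice (10 members, 4 regions, 2 genotypes) were called by limma; all genes were called at 0.291%, 0.1%, 0.0702% and 0.211% for df/+ and at 2.27%, 0%, 5.54% and 0.015% for dp/+ in bulb, cortex, cerebellum and brain stem. The brain stem had the largest differences, with 10 of 10 members below +/+ in df/+ (median -0.37) and 10 of 10 in dp/+ mice (median -0.22). At an unadjusted p below 0.05 the df/+ counts in bulb, cortex, cerebellum and brain stem were 1, 1, 0 and 4 members, against 10.7%, 6.01%, 8.78% and 4.17% of all genes. The dp/+ counts were 1, 0, 0 and 3, against 17.9%, 15.8%, 28.5% and 3.56%. Medians for df/+ were -0.20 in bulb, -0.16 in cortex and -0.03 in cerebellum, and for dp/+ -0.21, -0.09 and 0.07. The slope on copies did not pass a limma F test for a difference between regions for any member (0.0502% of all genes; 0 members at an unadjusted p below 0.05, against 1.91% of all genes, the lowest being 0.396 for Egr4).

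Junb was low in df/+ mice in 3 of the 4 regions by the order of single samples. Both df/+ samples were under every +/+ sample for Junb, Fos and Arc in bulb (14.6% of all genes), for Junb, Egr2 and Egr4 in cortex (14.3%), for Egr1 in cerebellum (19.2%) and for Junb, Egr1 and Nr4a1 in brain stem (9.32%). The opposite order held for Arc in the df/+ cerebellum (8.18%). All dp/+ samples were over every +/+ sample for Fos in cortex (25.9%) and for Egr2 in cerebellum (16.1%). Junb read 8.65 and 8.51 in the df/+ bulb against 8.85, 8.89 and 9.02 in +/+ mice, and 8.36 and 8.37 in the df/+ cortex against 8.77, 8.87 and 8.39. The 2 arrays of the df/+ mouse 1 cortex read 8.30 and 8.42, and those of +/+ mouse 3 both read 8.39. The Junb order in cortex is therefore within array error.

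In the brain stem Nr4a1 read 9.07 and 8.82 in df/+ mice, 9.77, 10.28 and 9.19 in +/+ mice and 9.43, 9.32 and 9.02 in dp/+ mice. No df/+ sample reached the lowest +/+ sample, and the difference was -0.80 ± 0.26 (unadjusted p = 0.00406, limma adjusted p = 0.473). Arc read 8.35 and 8.76 in df/+, 9.22, 9.71 and 8.55 in +/+ and 8.83, 8.66 and 8.81 in dp/+ mice. Here the +/+ range covered most other samples, and the high values were those of +/+ mice 1 and 2. The Arc difference for df/+ was -0.60 ± 0.21 (unadjusted p = 0.00836, limma adjusted p = 0.685). Egr1 gave -0.47 ± 0.16 (adjusted p = 0.539) and Junb -0.46 ± 0.13 (adjusted p = 0.286) in the same limma fit.

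The highest brain stem values of the members' mean fell in the 2 +/+ samples that were also high for markers of other tissue. Over the 8 cortex markers, of which only Tbr1, Neurod6 and Fezf2 set the samples apart, the mean log2 value was 8.96 and 9.26 in +/+ mice 1 and 2, 8.41 in +/+ mouse 3, 8.26 and 8.28 in df/+ and 8.26 to 8.60 in dp/+ mice. Over 5 choroid plexus genes it was 9.07 and 9.60 in +/+ mice 1 and 2 and 7.78 to 8.33 in the other 6 samples. The members' own mean was 8.64 and 9.01 in those 2 samples and 8.37 in +/+ mouse 3. It was 8.31 and 8.26 in df/+ mice and 8.32 to 8.52 in dp/+ mice. Among the other 6 samples the members did not keep the order of the cortex markers. There dp/+ mouse 2, lowest for those markers at 8.26, had a members' mean of 8.48, above +/+ mouse 3. Without the 2 samples, which leaves 1 +/+ brain stem assumed to vary like the other groups, the df/+ median was -0.07, with 3 of 10 members above 0. The dp/+ median was then 0.11, with 7 of 10 above 0, and no member of either genotype had an unadjusted p below 0.05. Nr4a1 in df/+ went from -0.80 to -0.21 and Arc from -0.60 to 0.03. Conversely, without +/+ mouse 3 the df/+ brain stem differences of Nr4a1 (-1.08, limma adjusted p = 0.0272), Arc (-0.91, 0.0153) and Junb (-0.55, 0.0395) passed the threshold.

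**Figure D3:**
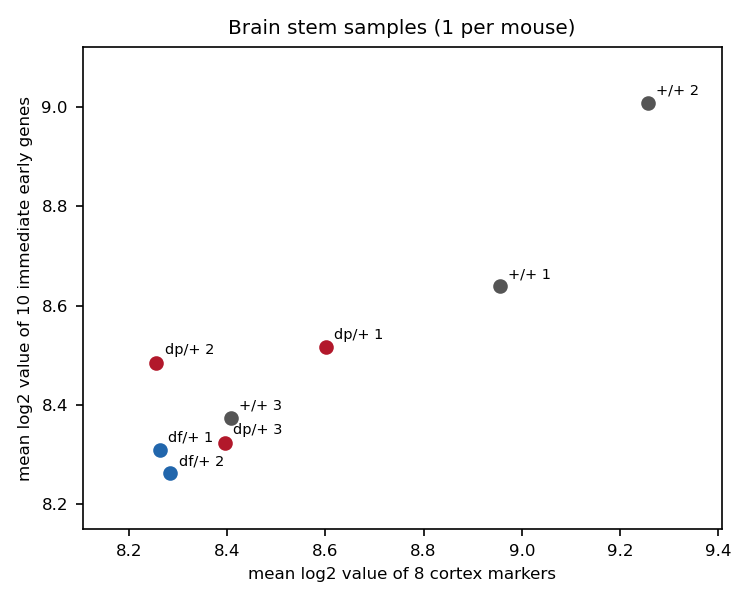
Mean log2 value of the 10 immediate early genes (vertical axis) against the mean log2 value of 8 cortex markers (horizontal axis) in the 8 brain stem samples, 1 point per mouse, coloured and labelled by genotype and mouse. The +/+ mice 1 and 2 are at the upper right, and the other 6 samples lie between 8.26 and 8.52 on the vertical axis.

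With the brain stem left out of the mean over regions, df/+ differences were below 0 for 9 of 10 members with a median of -0.11. Junb remained at -0.23 ± 0.06 (unadjusted p = 0.00371, limma adjusted p = 0.547), and Junb, Egr1 and Egr2 still had both df/+ mice below all +/+ mice (14% of all genes). For dp/+ mice the median stayed at -0.11, and no member had an unadjusted p below 0.05.

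The members varied more between mice than most genes did. The SD between mice of 1 genotype and region had a median of 0.26 log2 over the members and 0.13 over all genes, and 7 of the 10 members lay above the 92nd percentile of genes. The SD between the 2 arrays of 1 sample had medians of 0.09 for both. By region, the members' median SD between mice was 0.27 in bulb, 0.19 in cortex, 0.17 in cerebellum and 0.23 in brain stem, against 0.13, 0.11, 0.11 and 0.12 for all genes. Nr4a1, at 0.32 between mice and 0.06 between arrays, had the largest ratio of the members, 5.24. Egr2 had the smallest ratio, 1.47, with 0.40 between mice and 0.27 between arrays, the latter larger than in 99.7% of genes. Junb (0.15 and 0.09, ratio 1.56) and Egr4 (ratio 1.77) came next, beside a median ratio of 1.34 over all genes. For Egr2 the 2 arrays of the dp/+ mouse 1 cerebellum sample read 6.56 and 7.21, so small Egr2 differences there are within array error.

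**Figure D4:**
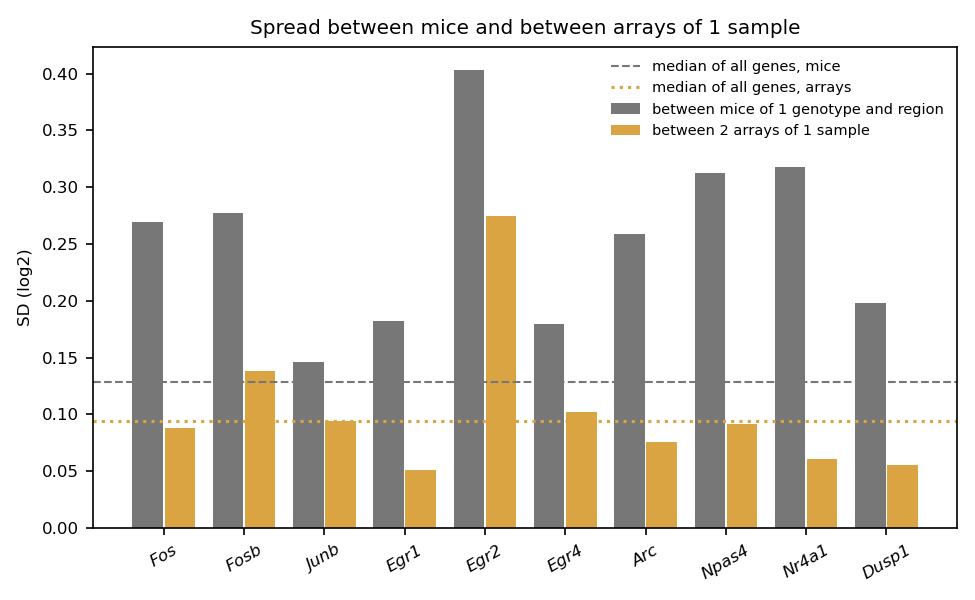
SD on the log2 scale (vertical axis) between mice of 1 genotype and region (grey bars) and between 2 arrays of 1 sample (orange bars) for each member, with lines at the medians of all genes (0.13 and 0.09). All 10 grey bars exceed the dashed line, and Egr2 alone among the orange bars is near 0.27.

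Single samples carried much of this spread. In the olfactory bulb of dp/+ mouse 3 all 10 members were below the +/+ mean, with a mean of -0.52 log2, and Egr2 read 8.43 against 9.40 to 10.24 in +/+ mice. In the cerebellum of +/+ mouse 3, 9 of 10 were above it, with Fos at 8.45 against 7.83 and 7.69 in the other +/+ mice. In the brain stem all 10 were above it in +/+ mouse 2 (mean 0.34) and below it in +/+ mouse 3 (mean -0.30). In the cortex of df/+ mouse 1 all 10 were below it, with Npas4 at 9.01 against 9.45 to 9.66. That deviation was from +/+ mice. Against the mean of the df/+ cortex group the members of this sample averaged only -0.08 log2, with 4 above it. Averaged over regions, all 10 members were below the +/+ mean in df/+ mouse 1 (mean -0.21) and in dp/+ mouse 3 (mean -0.28), 7 in df/+ mouse 2 (mean -0.17), 8 in dp/+ mouse 2 (mean -0.06) and 5 in dp/+ mouse 1 (mean 0.00). Without dp/+ mouse 3, the dp/+ median difference was -0.03 instead of -0.11, and the median slope 0.10 instead of 0.03.

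**Figure D5:**
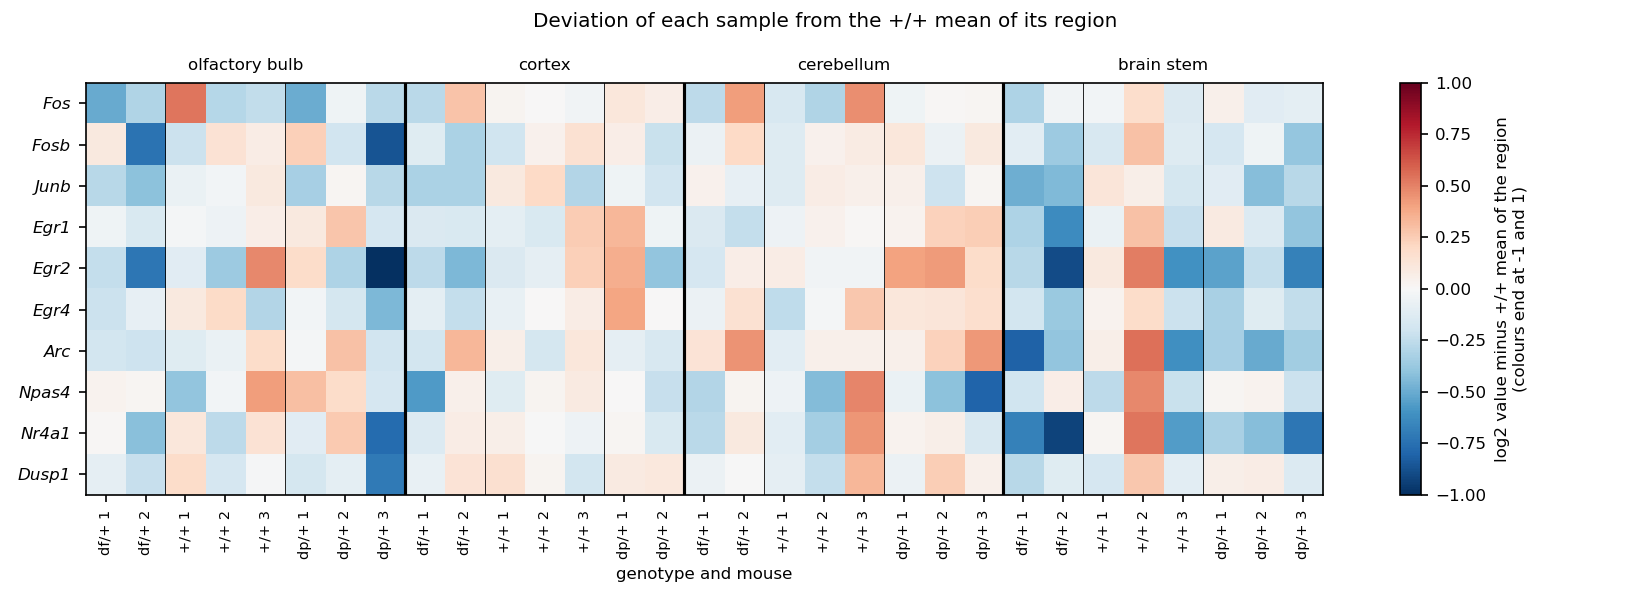
Deviation of each member (rows) from its +/+ mean in the same region, in log2 units, in each of the 31 region samples (columns, grouped by region, genotype and mouse), blue below and red above 0, with colours ending at -1 and 1. Whole columns share a colour, such as the bulb of dp/+ mouse 3 and the brain stem of +/+ mouse 2.

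Members deviated together within samples. As a description over the 31 samples after removing the mean of each region and genotype, 43 of 45 member pairs had a Pearson r above 0, with a median of 0.41, while members paired with other genes had a median of -0.04. The samples share mice, dissections and arrays, so these are not independent points. Nr4a1 and Dusp1 were the closest pair (r = 0.80), and Fos and Fosb the least alike (r = -0.17). The median was 0.33 without the brain stem (23 samples) and 0.63 in its 8 samples alone.

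The genes outside the set whose residuals were most like the members' mean over these 31 samples were Zkscan3 (r = 0.73), Nrgn, Baiap2, Plekhg5, Anxa11, Klf10, Tcf4, Nin, Egr3 and Mir376c (r = 0.70). Of these, Klf10 and Egr3 stood on the list of further immediate early genes. Without the brain stem (23 samples) only Mir376c of these 10 was among the 10 most alike, which were led by Vwa5b2 (r = 0.84), Mir377, Cited2 and Hspa8, and Nrgn and Plekhg5 were at r = 0.50. Gene by gene, Egr3 was the closest match of Egr2 (r = 0.87) and of Fosb (r = 0.82), Dusp4, an ERK phosphatase, of Npas4 (r = 0.80), and Arpp21 of Egr1 (r = 0.81). The closest matches of the others were Cisd2 for Fos, Ccdc138 for Junb, Rab42 for Egr4 and Ddx27 for Arc. Without the brain stem each of these 8 closest matches was another gene, such as Zfp398 for Egr2, Chst2 for Fosb, Ptger3 for Npas4 and Mir376a for Egr1, while Nr4a1 and Dusp1 were again each other's closest (r = 0.86).

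Mice of the same genotype were compared across regions with a limma F test. It called 0 of 10 members against 2.57% of all genes. At an unadjusted p below 0.05 there were 2, against 21.2% of all genes, namely Npas4 (limma adjusted p = 0.139) and Fosb (limma adjusted p = 0.158). Without +/+ mouse 2, Npas4 was called (adjusted p = 0.0243). Of 30 further immediate early genes measured, 7 were called, among them Per1 and Nr4a3. Nr4a3, a nuclear receptor of the Nr4a1 family, read -0.17 and -0.52 in df/+, -0.15, 0.10 and 0.05 in +/+ and 0.17, -0.63 and -1.12 in dp/+ mice (limma adjusted p = 0.00222). Per1, a clock gene that also responds to glucocorticoids, read 0.01 and -0.49, -0.18, 0.00 and 0.18, and 0.10, -0.34 and -0.70 in the same order (limma adjusted p = 0.000274). For both, dp/+ mouse 3 was lowest, as it was for the members' mean (-0.28). Single members differed, since Fos and Arc were lowest in df/+ mouse 1 and Junb and Egr1 in df/+ mouse 2. Of the other called genes of the list, Rheb was highest in dp/+ mouse 3 (0.26) and Btg2 was above 0 there (0.23). The remaining called ones were below 0 in that mouse.

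Of 10 glucocorticoid-responsive genes, 5 were called in the same test, with Sgk1, a kinase induced by stress hormones, at -0.06 and -0.84 in df/+, -0.07, 0.07 and 0.00 in +/+ and -0.16, -0.50 and -0.999 in dp/+ mice (limma adjusted p = 4.15e-05). Of 13 ERK feedback genes, 3 were called, Dusp5, Spry2 and Spry4. Of 19 activity-regulated effector genes 1 was called, Syt4, and of 8 microglia markers 1, C1qa. No gene was called among 14 of the ERK cascade, 17 transcription factors upstream of the members, 8 heat shock genes or 9 neuron markers. At an unadjusted p below 0.05 these lists had 4, 8, 4 and 1. Of all genes this limma F test called 2.57%, and 21.2% had an unadjusted p below 0.05.

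The same lists were read for copy number. No gene of the further immediate early, effector, ERK feedback, ERK cascade or upstream factor lists passed the limma threshold for the slope across the brain (0.11% of all genes). At an unadjusted p below 0.05 there were 0, 0, 3, 0 and 0 of them, against 6.87% of all genes. Those 3 were Spry4 (slope -0.21 ± 0.08), Dusp6 (-0.15 ± 0.07) and Rasa3 (0.10 ± 0.04), which restrain the Ras and ERK pathway. Spry4 read -0.02 and 0.11 in df/+, -0.11, 0.00 and 0.11 in +/+ and -0.06, -0.30 and -0.52 in dp/+ mice. The slopes of Jun and Btg2, the further immediate early genes with the smallest p, were 0.12 ± 0.06 and 0.16 ± 0.08, and that of Scg2, the first of the effectors, was -0.10 ± 0.05. In the ERK cascade the slope with the smallest p was that of Rps6ka3, a kinase activated by ERK, at -0.09 ± 0.05.

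Differences of the genotypes from +/+ on these lists were again mostly below 0. Of the further immediate early genes, 24 of 30 were below 0 in df/+ mice (median -0.13) and 22 in dp/+ mice (median -0.08), with 0 called by limma in either and 2 and 7 at an unadjusted p below 0.05, near the shares of all genes at that level (6.75% and 23.7%). Of the effector genes, 14 of 19 were below 0 in df/+ (median -0.05) and 17 in dp/+ mice (median -0.12). Gadd45b, a DNA repair and demethylation factor, fell in dp/+ mice by 0.23 ± 0.05 log2 (limma adjusted p = 0.0464) and read -0.23 ± 0.06 in df/+ mice (adjusted p = 0.426). Among glucocorticoid-responsive genes 9 of 10 were below 0 in df/+ (median -0.22) and 10 of 10 in dp/+ mice (median -0.27), and Tsc22d3 fell in dp/+ mice by 0.44 ± 0.09 (limma adjusted p = 0.0404). The heat shock gene Dnajb1, at -0.24, -0.45 and -0.58 in the dp/+ mice, was also called by limma against +/+. These dp/+ calls depended on the setting. In place of 371, 0 of all genes were called without the cerebellum and 11 without +/+ mouse 2. The part of glucocorticoid-responsive or tissue marker genes in the members' values was not tested.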

How the data were processed

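Total RNA of each region was labelled and hybridised to Affymetrix arrays. The deposited table holds log2 expression values that the authors made with RMA in Affymetrix Expression Console, per the submitters' processing notes; the log base was read from the values, and versions are not given in the sources used here. Of 35556 probe sets, 21789 had 1 gene symbol, 1621 several and 12146 no listed gene; the highest-mean probe set per gene was kept (19938 genes). Technical repeats were averaged. Tests used limma 3.58.1 (R 4.3.3) with Benjamini-Hochberg adjustment over all genes: 1 value per mouse across the brain, and within regions 12 group means with mouse as a random block (correlation 0.12). Wild-type regions were compared with mouse as a fixed block. Scripts were tested on simulated data. The labels give no batch or hybridisation date, and the number of mice limits the precision.

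The members and lists were chosen with earlier results of these data known. All members are named; of each further list, the genes named are up to 4 with the smallest p of the slope and up to 4 past the threshold in a comparison, plus the genes most like the members by residual correlation. Alternatives tried were other normalisations, filters, probe set rules, priors, weights, blocks and single mice or regions left out.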

Additional observations from a re-analysis of the deposited data

How the results depend on the processing

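Of 210 member results recomputed under up to 26 settings, 18 calls were lost, 15 were gained and 1 turned direction, and 159 differences that were called in neither setting changed sign. Members called lower in cerebellum than brain stem (5) were 3 without +/+ mouse 1 or mouse 2, 6 without mouse 3 and 0 without the 2 brain stem samples; those called higher (1) were 1, 2, 0 and 3. With array weights 1 member was called for the slope across the brain and 1 for dp/+ against df/+ (Egr1 in both, in place of 0). Leaving out single mice gave 0 to 3 called members for df/+ against +/+ within regions, the 3 being Nr4a1, Arc and Junb in the brain stem without +/+ mouse 3, and 0 to 1 for mice of 1 genotype, Npas4 without +/+ mouse 2. The turned result was Nr4a1 in cerebellum minus brain stem, which ranged from -0.50 (without +/+ mouse 3) to 0.44 (without +/+ mouse 2); the cause was not tested. With the trended robust prior, the Nr4a1 call of bulb over cortex (adjusted p = 0.0973) and the Egr2 call of cerebellum against brain stem (0.0722) were lost, and with quantile normalisation Junb was called higher in bulb than cortex (0.31, adjusted p = 0.0421).

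The labels give the groups replicate numbers. Correlations of the deviations of same-numbered mice ran from -0.38 to 0.17, and those of mice with other numbers from -0.39 to 0.39. Deviations of the 2 df/+ mice from their own mean are mirror images, so this check cannot decide whether the numbers pair mice. With the number as a replicate block, 0 members were called for the slope, df/+ or dp/+ across the brain, and the df/+ median was -0.20.

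The count of all genes called in dp/+ against +/+ mice, 371, varied between 0 (without the cerebellum) and 2222 (array weights), so the share of 1.86% is loose. The setting without 2 +/+ brain stem samples was chosen after seeing the data. With 2 or 3 mice a group, differences well under the members' SD between mice could not be called. Some larger ones were not called either, such as Nr4a1 in the df/+ brain stem (-0.80, limma adjusted p = 0.473, SD between mice 0.38). A missing call therefore does not show that a difference is absent.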
